A study of Mus musculus with 12 samples.

Results

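OSKM+B12 cells were compared with untreated MEF cells, which are the corners of the experiment that differ in both treatments, and the joint change was set against the sum of the changes that each treatment made alone. The comparison used 6 of the 12 libraries of the series, taken by the group given in the sample labels, and the other 6 (OSKM and MEF+B12) entered to measure the separate changes. All cells were mouse embryonic fibroblasts from C57BL/6 embryos at E13.5, and all 4 groups carried a doxycycline-inducible cassette of Oct4, Sox2, Klf4 and Myc (OSKM). MEF cells received neither agent, MEF+B12 cells received 2 µM vitamin B12, OSKM cells received 1 µg/ml doxycycline, and OSKM+B12 cells received both. All were kept in medium for induced pluripotent stem cells for 72 h. Each of clones 1, 2 and 3, which stand for 3 embryos, gave 1 library to every group, so that the groups were paired. No group had doxycycline without the cassette, so an effect of the drug and of the factors cannot be told apart. The titles of the clone 1 libraries bear a later year than those of the other clones. The 6 libraries held between 56971244 and 67757924 counted read pairs, within the range of all 12, whose highest was 79236795.

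OSKM are the transcription factors that turn fibroblasts into pluripotent cells, and in the first days of that process fibroblast genes are lost before pluripotency genes come on. Vitamin B12 is a cofactor of methionine synthase, which passes a methyl group from folate to homocysteine, and of methylmalonyl-CoA mutase in the mitochondrion. Fibroblast cultures from whole embryos can hold other cells of the embryo, among them tissue macrophages, which take up debris and lipoproteins through scavenger receptors, recycle iron and heme, and attract monocytes with CC chemokines. As a check of the tissue label, all 22 fibroblast identity genes passed the filter on low counts, and their summed level was 15720 to 18150 CPM in the 3 MEF libraries. Of 24 macrophage markers 23 passed, and their summed level was 2010 to 3404 CPM in MEF and 3021 to 3541 CPM in OSKM+B12. CPM are counts divided by the scaled library total and multiplied by 1000000.

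In the cells given both treatments Pou5f1 and Sox2 rose among the 4 induced factors, as did 6 of 23 macrophage markers, and 9 of 15 contractile and 6 of 20 matrix genes fell. Of 19174 genes tested, 265 rose (1.38%) and 271 fell (1.41%) in OSKM+B12 against MEF (edgeR quasi-likelihood test with clone as a block, Benjamini-Hochberg adjusted p below 0.05). The rises were larger than the falls, with a median joint change of 0.73 on the log2 scale against -0.40. A change of more than 1 on the log2 scale was seen in 94 of the rises and 8 of the falls. All 3 clones had the same sign in 260 of the 265 rises and in all 271 falls, against 8264 of all 19174 genes tested. The rises and falls were picked by a test on the same clone differences, which largely fixes this agreement. In 158 of the rises every OSKM+B12 library lay above every MEF library, a pattern seen in 6.97% of all genes tested. In 119 of the falls every one lay below, a pattern of 6.26% of all genes tested. The genes were picked by the difference between these same libraries, so the larger shares are largely built in. With library totals in place of TMM scaling the split was 490 higher and 142 lower. The counts depended on which clones were kept. Without clone 2 only Pou5f1 passed in either direction. Without clone 1, 177 genes rose and 2 fell, and without clone 3, 546 rose and 596 fell.

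On the log2 scale the joint change is exactly the induction part plus the B12 part. The induction part is the mean of the changes with doxycycline in cells without and with B12, and the B12 part is the mean of the changes with B12 in uninduced and induced cells. In the induction part 856 genes were higher (4.46%) and 1009 lower (5.26%), and in the B12 part 663 were higher (3.46%) and 73 lower (0.381%). The parts differed from each other in 1455 genes, with the induction part above the B12 part in 486 (2.53%) and below it in 969 (5.05%). Among the 265 rises, the B12 part was above the induction part in 116, the induction part was above the B12 part in 62, and their difference did not pass the test in 87. Among the 271 falls, the difference did not pass in 256. Over all falls the median induction part was -0.26 and the median B12 part -0.14.

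**Figure D1:**
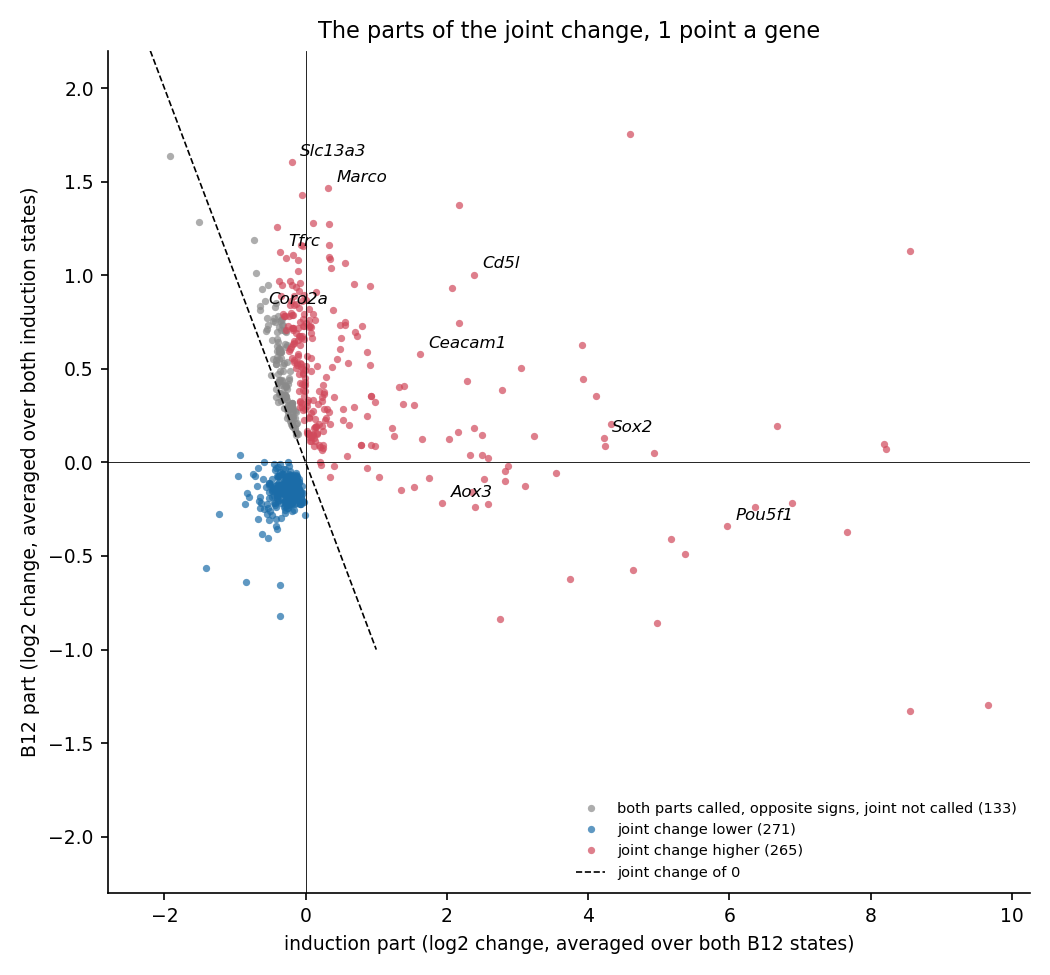
Induction part (horizontal axis, log2 change averaged over both B12 states) against B12 part (vertical axis, log2 change averaged over both induction states), with 1 point for each gene. The 265 rises lie above the dashed line of no joint change, along both axes, the 271 falls lie below it, mostly with both parts negative, and 133 genes with opposite parts lie close to it on the upper left. Points far to the right are genes with few or no counts in uninduced cells, whose fitted size depends on the prior count.

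The induced factors themselves were the first check of the labels. Pou5f1 (ENSMUSG00000024406), which encodes Oct4, was at 0.468, 0.380 and 0 CPM in MEF for clones 1, 2 and 3, and at 20.7, 19.0 and 2.33 CPM in OSKM+B12. The 0 in clone 3 allows up to 0.0473 CPM, the value of 3 counts in that library, and covers counting error only. Every OSKM+B12 library lay above every MEF library, and clone 3 had the lowest level of the 3 induced clones. The joint change of Pou5f1 was 5.62 ± 0.21 on the log2 scale (edgeR adjusted p = 6.25e-07), and the sum of its separate changes was 4.99. For log2 changes ± is the standard error of the edgeR fit to all 12 libraries. It is not the spread of the change over the 3 clones, which can be wider. Sox2 (ENSMUSG00000074637) went from 0.658, 0.522 and 0.379 CPM to 15.9, 17.8 and 2.18 CPM, a rise of 4.35 ± 0.41 (adjusted p = 9.61e-04) beside a sum of 4.28. Its joint change was 4.54, 5.01 and 2.43 in clones 1, 2 and 3. The counts hold transcripts of the cassette and of the native genes together. Myc, with a joint change of 0.94 ± 0.24, did not pass (adjusted p = 0.0628). It was at 50.4 and 43.6 CPM in OSKM+B12 of clones 1 and 2 against 22.5 and 16.4 in MEF, and at 21.9 against 18.6 CPM in clone 3. Without clone 3 its joint change was 1.30 (adjusted p = 1.61e-04). Klf4 fell by 0.24 ± 0.05 on the log2 scale (adjusted p = 0.0272), from 139, 143 and 124 CPM to 115, 119 and 108 CPM. This fall did not pass with library totals in place of TMM scaling, without clone 1 or without clone 2.

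**Figure D2:**
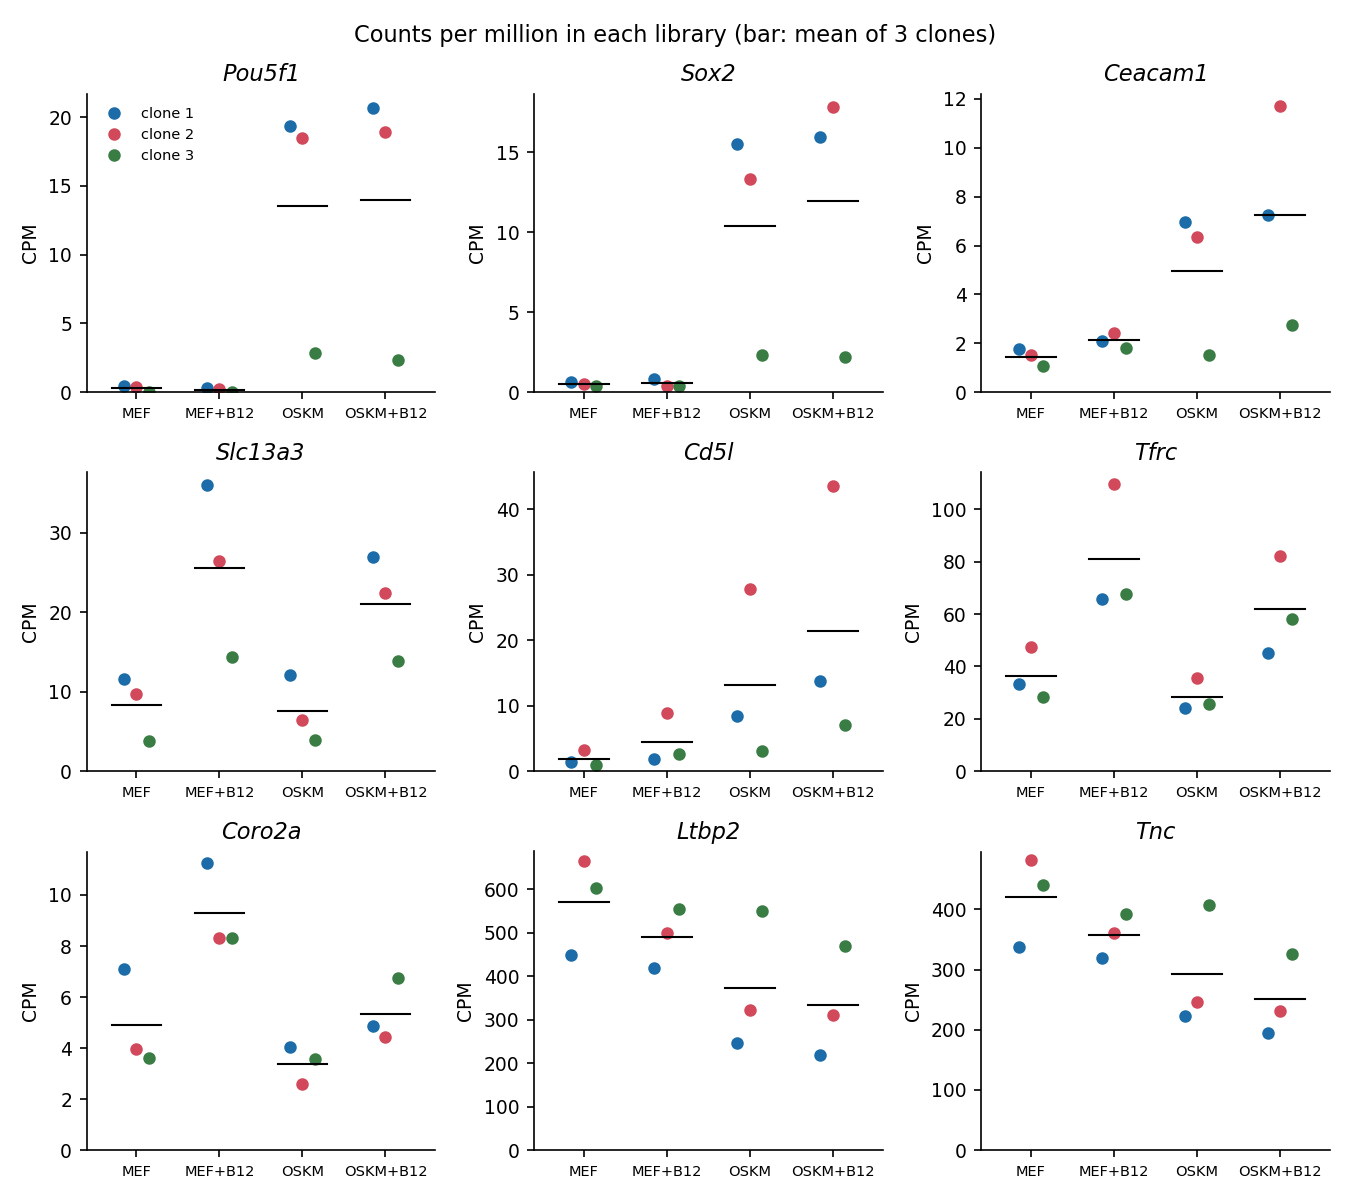
CPM (vertical axes, linear and starting at 0) of 9 genes in the 12 libraries, by group (horizontal axes), with colour for the clone and a black bar for the mean of 3 clones. Pou5f1, Sox2 and Ceacam1 are high in both induced groups of clones 1 and 2, Slc13a3 and Tfrc in both B12 groups, Cd5l is highest with both, Coro2a is highest with B12 alone, and Ltbp2 and Tnc are lowest with both in each clone.

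Among genes with a mean log2 CPM of at least 1, the 2 named rises of largest difference between the parts were Sox2 and Aox3, an aldehyde oxidase, on the side of induction, and Slc13a3, a sodium-coupled carrier of dicarboxylates, and Clec4a2, a C-type lectin receptor of myeloid cells, on the side of B12. The 250 bases before the RefSeq start of each are shown, 5′ to 3′ on the strand of the gene, to set the proximal promoters of genes led by one treatment beside those led by the other. Capitals mark matches on either strand to the PU.1 box GAGGAAGT, the octamer ATGCAAAT, the AP-1 site TGANTCA, the E-box CACGTG or the GC box GGGCGG. The coordinates are those of RefSeq on GRCm38.p6: Sox2 chr3:34649745-34649994, plus strand, Aox3 chr1:58112886-58113135, plus strand, Slc13a3 chr2:165473198-165473447, minus strand, and Clec4a2 chr6:123122440-123122689, plus strand.
Sox2: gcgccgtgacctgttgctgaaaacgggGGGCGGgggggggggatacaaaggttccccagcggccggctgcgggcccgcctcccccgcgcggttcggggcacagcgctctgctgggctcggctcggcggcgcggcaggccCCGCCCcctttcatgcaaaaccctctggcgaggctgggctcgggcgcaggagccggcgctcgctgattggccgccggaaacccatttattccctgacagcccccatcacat
Aox3: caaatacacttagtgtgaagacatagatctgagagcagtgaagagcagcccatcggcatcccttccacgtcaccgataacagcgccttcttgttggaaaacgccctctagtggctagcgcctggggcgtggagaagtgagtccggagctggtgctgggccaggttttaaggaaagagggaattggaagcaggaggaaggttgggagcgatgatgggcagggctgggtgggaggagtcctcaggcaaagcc
Slc13a3: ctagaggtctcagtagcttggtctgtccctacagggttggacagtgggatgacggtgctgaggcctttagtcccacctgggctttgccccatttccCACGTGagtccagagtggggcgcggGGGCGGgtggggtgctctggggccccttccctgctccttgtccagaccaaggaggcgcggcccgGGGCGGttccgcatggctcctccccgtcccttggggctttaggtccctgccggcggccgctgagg
Clec4a2: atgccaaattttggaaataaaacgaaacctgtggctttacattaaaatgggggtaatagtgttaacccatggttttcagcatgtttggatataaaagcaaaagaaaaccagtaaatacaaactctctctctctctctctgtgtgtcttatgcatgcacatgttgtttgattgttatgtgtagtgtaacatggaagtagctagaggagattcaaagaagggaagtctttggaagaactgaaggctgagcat
The Sox2 window held 2 GC boxes, at 223 and 111 bases before the start, and the Slc13a3 window held an E-box at 154 bases and 2 GC boxes at 129 and 65 bases. The windows of Aox3 and Clec4a2 held none of these letters, and the Clec4a2 window has 37.2% G and C against 72.0% in Sox2. Of all 32851 promoters in the table, 32.7% held a GC box, 6.02% an E-box, 6.75% an AP-1 site, 2.44% a PU.1 box and 1.60% the octamer. These matches are a description of the letters only. The Sox2 window is that of the native gene, while the Sox2 counts hold cassette transcripts too, so the rise need not come from this promoter.

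The 116 rises led by the B12 part had a median joint change of 0.57, with a median induction part of -0.08 and a median B12 part of 0.71. Their median joint change was 0.30, 0.69 and 0.75 in clones 1, 2 and 3. Slc13a3 had the largest difference among them. It was at 11.6, 9.72 and 3.74 CPM in MEF, at 35.97, 26.4 and 14.4 CPM in MEF+B12, and at 26.9, 22.4 and 13.8 CPM in OSKM+B12. The joint groups did not overlap, and in every clone B12 alone gave a higher level than both treatments together. Its joint change was 1.41 ± 0.14 (edgeR adjusted p = 0.00158), beside a sum of 1.48.

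CC chemokines, which recruit monocytes and other leukocytes, rose in 6 of 10 genes tested and fell in 0, with a median joint change of 0.76 against 0.00 over all genes tested. Ccl12, a monocyte attractant, was at 18.4, 6.91 and 4.97 CPM in MEF and at 37.6, 20.8 and 14.3 CPM in OSKM+B12. The groups overlapped because clone 1 started high, while the level rose in each clone. The joint change of Ccl12 was 1.37 ± 0.12 (adjusted p = 6.23e-04) and the sum was 1.45. Ccl2, which acts on the same receptor, rose by 0.48 ± 0.08, with parts of opposite sign. Its induction part was -0.25 and its B12 part 0.73. Ccl4 and Ccl9 rose by 0.80 and 0.87. Of the 10 genes, 4 rose without clone 1, 5 without clone 3 and 0 without clone 2.

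Scavenger and lectin receptors rose in 10 of 20 genes tested and fell in 0 (median joint change 0.63). Msr1, a class A scavenger receptor for modified lipoproteins, rose from 62.7, 34.6 and 28.0 CPM to 77.4, 58.7 and 54.4 CPM. This was a joint change of 0.67 ± 0.10 (adjusted p = 0.0131), made of -0.17 from induction and 0.84 from B12. Cd36, which takes up long-chain fatty acids and oxidized lipoproteins, rose by 0.87 ± 0.14, and Marco, a receptor for bacteria and particles, by 1.78 ± 0.41. Marco was low and variable, at 0.473 CPM in MEF of clone 3 and 11.3 CPM in OSKM+B12 of clone 1. The lectin receptors Clec4a1, Clec4a2, Clec4a3 and Clec4n rose by 0.89, 0.85, 1.10 and 0.87. Of the Cd300 receptors named, Cd300ld4, Cd300ld5 and Cd300ld3 shared 84.2% to 100% of their 31-base words with other genes, so their rises of 1.49, 1.44 and 1.43 are uncertain.

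Of 23 macrophage markers 6 rose and 0 fell (median joint change 0.38), although 20 of the 23 were higher in the B12 part. Joint changes of 3 markers were below 0, the lowest at -1.11, and did not pass. The median joint change of the list was -0.03, 0.47 and 0.64 in clones 1, 2 and 3. The rises were Mrc1, the mannose receptor, Itgam, an integrin chain, the complement genes C1qa, C1qb and C1qc, and Fcgr1, the high-affinity receptor for IgG. Mrc1 was at 284, 185 and 122 CPM in MEF and at 450.0, 327 and 237 CPM in OSKM+B12, a rise of 0.81 ± 0.11 (adjusted p = 0.00772). The groups overlapped between the highest MEF library and the lowest OSKM+B12 library. Itgam shared 68.1% of its words with other genes and is uncertain. The summed level of the list was 1.04 times that of MEF in clone 1, 1.39 times in clone 2 and 1.503 times in clone 3. In bulk RNA more macrophages and more of these transcripts in each macrophage cannot be told apart. Without clone 1, 14 of the 23 rose, without clone 3, 5 rose and 2 fell, and without clone 2, 0 rose.

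Of 22 iron and heme genes 4 rose and 1 fell, with a median joint change of 0.04. Tfrc (ENSMUSG00000022797), the transferrin receptor that brings iron into cells, was at 33.5, 47.5 and 28.2 CPM in MEF, at 65.7, 109.8 and 67.8 CPM in MEF+B12, and at 45.2, 82.2 and 58.0 CPM in OSKM+B12. In each clone the level with both agents lay between those of MEF and MEF+B12. Its joint rise of 0.76 ± 0.09 (adjusted p = 0.00385) was made of -0.37 from induction and 1.12 from B12, both past the threshold. Hmox1, which opens the heme ring, rose by 0.75 ± 0.06 (adjusted p = 6.22e-04), from 104, 126 and 100.1 CPM to 185, 214 and 159 CPM, with an induction part of 0.01. Blvra, the biliverdin reductase of the next step, rose by 0.33 ± 0.06, and Slc11a1, an iron carrier of phagosomes, by 0.65 ± 0.13. Heph, a ferroxidase of iron export, fell by 0.50 ± 0.09. The other 17 genes did not pass, and Fth1 and Ftl1, the ferritin chains, had both parts past the threshold with opposite signs. Of the 22 genes, 4 rose and 0 fell without clone 1, 3 rose and 4 fell without clone 3, and 0 passed without clone 2.

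Rises led by the induction part were larger and depended on the clone. The 62 genes had a median joint change of 2.63, with a median induction part of 2.58, and the joint median was 2.84, 3.04 and 0.84 in clones 1, 2 and 3. Aox3 (ENSMUSG00000064294) was at 2.79, 2.77 and 1.53 CPM in MEF and at 11.97, 13.8 and 1.75 CPM in OSKM+B12. The level of clone 3 stayed within the range of MEF. The joint change of Aox3 was 1.72 ± 0.39 (adjusted p = 0.0469). Ripor2 and Mlf1 rose by 1.66 ± 0.35 and 1.41 ± 0.24, and in both the OSKM+B12 level of clone 3 was the lowest of the 3.

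Epithelial genes mark the passage of fibroblasts to an epithelial state early in reprogramming. Of 10 tested, 2 rose and 1 fell (median joint change 0.74). The list medians were 1.13, 0.90 and -0.15 in clones 1, 2 and 3. The summed level of the list in OSKM+B12 was 0.84, 0.91 and 0.91 times that of MEF in these clones. Without clone 1 or clone 2, 0 of the 10 passed, and without clone 3, 3 rose and 1 fell. Krt14, a keratin of basal epithelium, was at 0.658, 0.538 and 0.331 CPM in MEF and at 8.68, 4.49 and 0.430 CPM in OSKM+B12, a rise of 2.84 ± 0.51 (adjusted p = 0.0236) with a B12 part of -0.02. Krt8, a keratin of simple epithelium, rose by 2.61 ± 0.60, with the OSKM+B12 level of clone 3, at 0.200 CPM, below the 0.269 to 0.312 CPM of MEF. Cdh3, the placental cadherin, fell by 0.51 ± 0.11. All 9 mesothelial genes tested had a positive joint change (median 0.65) and none passed, with list medians of 1.29, 0.60 and -0.13 in clones 1, 2 and 3. Of 12 adventitial fibroblast genes 11 were above 0 and none passed (median 0.28), while 6 were higher in the induction part. Their medians were 0.48, 0.36 and -0.02 in clones 1, 2 and 3, and 5 rose without clone 3 and 1 with library totals. Without clone 3, 3 mesothelial genes rose. In the pluripotency network, 9 of 20 genes passed the filter, 0 rose and 1 fell (Fut4, by 0.45 ± 0.10), and Dppa4, Utf1 and Lin28a had 0 counts in all 12 libraries.

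**Figure D3:**
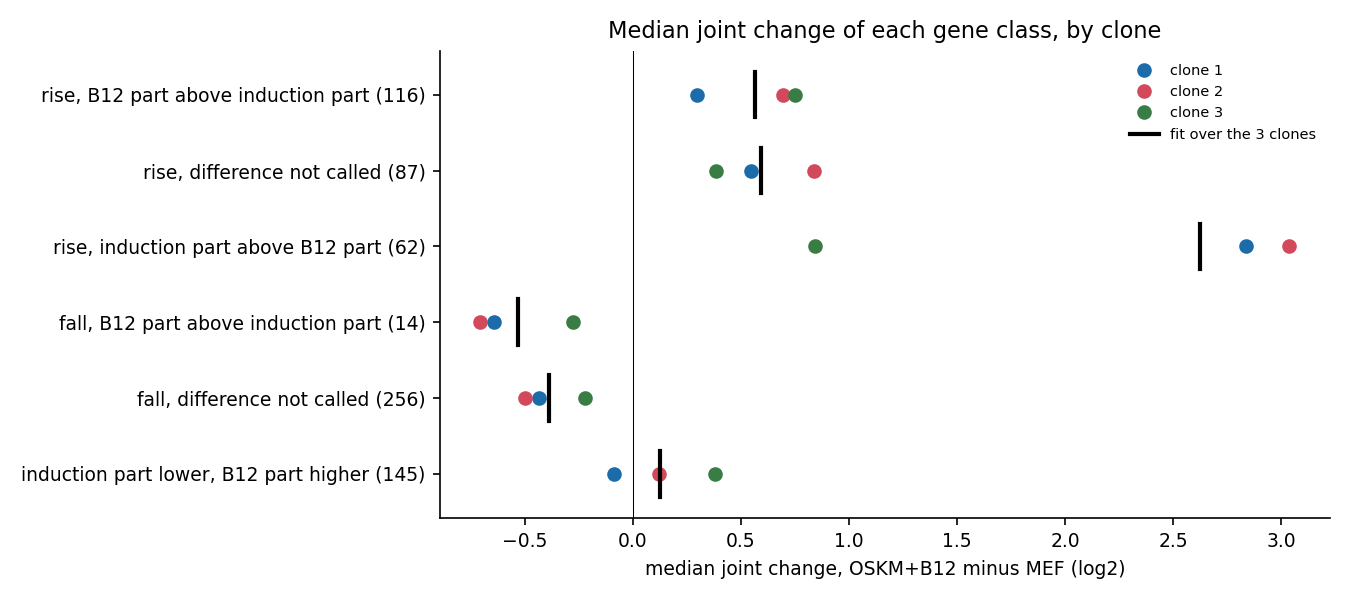
Median joint change of OSKM+B12 against MEF (horizontal axis, log2) in classes of genes set by which part was larger, with 1 point for each clone and a black line for the fit over the 3 clones. The class of 62 rises led by induction is at 2.84 and 3.04 in clones 1 and 2 and at 0.84 in clone 3, whereas the class of 116 rises led by B12 is lowest in clone 1, at 0.30. The class of 145 genes with opposite parts runs from -0.09 in clone 1 to 0.38 in clone 3.

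In 13 genes both parts were higher and in 9 both were lower, and all 22 passed in the joint change. Since the joint change is the sum of the parts, this follows largely from how the genes were picked. The 13 had a median joint change of 1.40, and it was above 0 in all 3 clones. Cd5l (ENSMUSG00000015854), a secreted protein of macrophages, was the largest of them. It was at 1.44, 3.18 and 0.978 CPM in MEF, at 1.88, 8.87 and 2.59 CPM in MEF+B12, at 8.35, 27.9 and 3.03 CPM in OSKM, and at 13.7, 43.5 and 7.10 CPM in OSKM+B12. In every clone the level with both agents was the highest of the 4. Its joint change was 3.39 ± 0.30 (adjusted p = 6.42e-04), with 2.39 from induction and 1.00 from B12, beside a sum of 3.79. Bst1, an ectoenzyme that acts on NAD, rose by 1.64 ± 0.18, the myeloid receptor gene Cd300ld by 1.52 ± 0.22, and Ccl8, a monocyte attractant, by 1.40 ± 0.20. Ccl8 was at 18.9, 23.8 and 16.7 CPM in MEF and at 55.7, 84.8 and 29.4 CPM in OSKM+B12, and the groups did not overlap. Ccl6 rose by 1.73 ± 0.24, of which 1.33 was the induction part, and its B12 part of 0.41 did not pass. Ceacam1, an adhesion molecule of epithelial and myeloid cells, rose by 2.19 ± 0.35 and shared 37.5% of its words with other genes. Acod1, the enzyme that makes itaconate, rose by 3.00 ± 0.57 from levels of 0.174 to 1.00 CPM. The 9 genes with both parts lower included Apoe, an apolipoprotein, and Mmp12, the macrophage elastase, which fell by 0.56 ± 0.09 and 0.77 ± 0.11.

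The falls were smaller and ran through the contractile and matrix genes of fibroblasts. Of 15 contractile genes 9 fell and 0 rose (median joint change -0.40). Acta2, the smooth muscle actin that marks myofibroblasts, was at 474, 268 and 316 CPM in MEF and at 282, 183 and 276 CPM in OSKM+B12. The level was lower in each clone, but the groups overlapped, since MEF of clone 2 lay below OSKM+B12 of clones 1 and 3. The fall was 0.49 ± 0.11 on the log2 scale (adjusted p = 0.0415), and the sum of the separate changes was -0.21. Tagln, which binds actin filaments, fell by 0.46 ± 0.09 from 265, 219 and 238 CPM to 182, 139 and 208 CPM. Myh11, the smooth muscle myosin heavy chain, and Lmod1, which nucleates actin filaments, fell by 1.00 ± 0.18 and 0.83 ± 0.16. Myl9, Tpm2, Mylk, Cnn2 and Cald1 fell by 0.24 to 0.51. Without clone 1 or clone 2, 0 of the 15 passed, and without clone 3, 12 did.

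Of 20 collagen and matrix genes 6 fell and 0 rose (median -0.28), and 19 had a joint change below 0. Tnc (ENSMUSG00000028364), tenascin C, a matrix glycoprotein of wounds and development, was at 338, 482 and 441 CPM in MEF and at 195, 231 and 326 CPM in OSKM+B12. The groups did not overlap, and the fall was 0.77 ± 0.13 on the log2 scale (adjusted p = 0.0214) beside a sum of -0.79. Outside the list, Ltbp2 (ENSMUSG00000002020), a protein of elastic microfibrils, went from 448, 664 and 601 CPM to 220, 311 and 469 CPM. It fell by 0.84 ± 0.16, beside a sum of -0.90, and clone 3 kept the highest level. Within the list, Col12a1, a collagen on the surface of fibrils, fell by 0.61 ± 0.13, the collagen VI chains Col6a1 and Col6a2 by 0.28 ± 0.06 each, Lox, which cross-links collagen and elastin, by 0.32 ± 0.07, and Loxl2 by 0.29 ± 0.06. Also outside it, Pappa, a protease that frees IGF from its binding proteins, fell by 0.82 ± 0.13. With library totals as the scaling, 3 of the 20 matrix genes and 7 of the 15 contractile genes fell.

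Genes of fibroblast identity fell in 4 of 22 tested, Pdgfra, Pdgfrb, Cdh2 and Runx1, by 0.37 to 0.42, and rose in 0. The PDGF receptors receive the main growth signal of mesenchymal cells, Cdh2 is the neural cadherin, and Runx1 is a transcription factor. Pdgfrb was at 274, 428 and 397 CPM in MEF and at 199, 298 and 345 CPM in OSKM+B12. Among 13 cell cycle inhibitors and p53 targets 3 fell, Cdkn2b, Cdkn1a and Gadd45a, by 0.29, 0.18 and 0.38, and with library totals 0 passed. Cdkn1a, which encodes the p21 inhibitor of cyclin-dependent kinases, was at 172, 153 and 158 CPM in MEF and at 150.5, 134 and 143 CPM in OSKM+B12, so its groups did not overlap. DNA replication genes moved the other way, with 4 of 20 higher, Mcm5 and Mcm6 of the helicase, Pcna, the sliding clamp, and Cdc6, which loads the helicase. Mcm5 rose by 0.29 ± 0.04 and the others by 0.18 to 0.37. With library totals 11 of the 20 rose. None of 20 mitosis genes passed, and with library totals 2 rose.

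Other falls lay outside these lists. Slc5a7, the choline transporter, and Tmem132e fell by 1.09 ± 0.24 and 1.03 ± 0.20, and the receptor tyrosine kinase gene Flt4 by 0.98 ± 0.23. The difference between the parts passed in Tmem132e and did not pass in Slc5a7 or Flt4. Of 9 endothelial genes tested 1 rose and 1 fell (median joint change 0.21), and 4 were higher in the induction part. Flt1, a receptor for VEGF, was at 87.7, 165 and 117 CPM in MEF and at 56.6, 81.0 and 94.4 CPM in OSKM+B12, a fall of 0.66 ± 0.12. Esam, a junction gene of endothelium, rose at low levels, from 0.121, 0.0474 and 0.0631 CPM to 0.426, 0.209 and 0.184 CPM (adjusted p = 0.0347). Without clone 3, 3 endothelial genes rose and 1 fell.

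**Figure D4:**
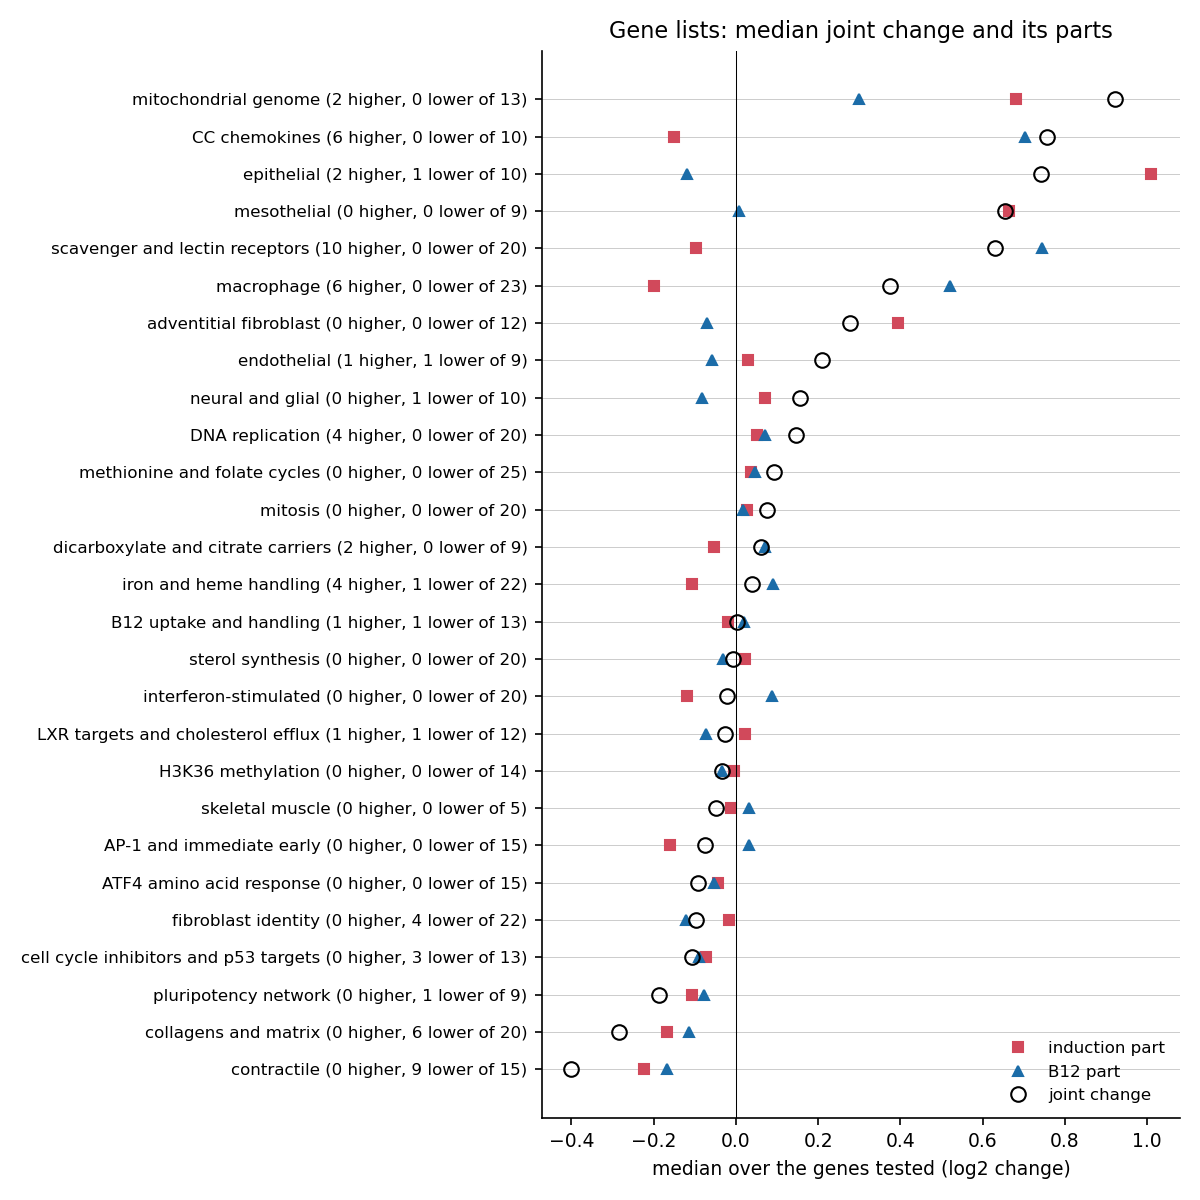
Median log2 change (horizontal axis) over the tested genes of 27 gene lists, with squares for the induction part, triangles for the B12 part and open circles for the joint change, and the joint calls beside each name. The macrophage, scavenger and chemokine lists have a positive B12 part and a negative induction part, the epithelial list a positive induction part, and the contractile and matrix lists are negative in both parts.

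None of 25 genes of the methionine and folate cycles passed, with a median joint change of 0.09 and 17 of them above 0. In the induction part 3 of them were higher and 1 lower, and in the joint change 2 rose with library totals and 2 without clone 3. Of 13 genes of B12 uptake and handling, Abcc1, which exports B12 from cells, rose by 0.27 ± 0.04, from 57.3, 49.7 and 47.8 CPM to 67.6, 61.8 and 57.1 CPM. Lrp2, an endocytic receptor for the transcobalamin complex in kidney, fell by 0.71 ± 0.16, from levels of at most 3.17 CPM. None of 14 genes of H3K36 methylation passed (median -0.03), and none of the ATF4, sterol synthesis, interferon, AP-1 or skeletal muscle lists, of which 1 AP-1 and 1 skeletal muscle gene fell without clone 3. Among the LXR targets Nr1h3, which encodes the receptor LXR alpha, rose by 0.55 ± 0.11 and Apoe fell. Ncam1 was the 1 of 10 neural genes to pass, lower by 0.32 ± 0.07. All 13 genes of the mitochondrial genome had a positive joint change (median 0.92). Of these mt-Nd3 and mt-Co3 passed, but they shared 98.1% and 99.9% of their words with other genes and are uncertain.

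In 145 genes both parts passed the threshold with opposite signs, and in all 145 the induction part was lower and the B12 part higher. Of these 12 rose in the joint change and 0 fell. The median induction part was -0.32, the median B12 part 0.47 and the median joint change 0.13, and 111 of the 145 had a joint change of less than 0.3 in either direction. The joint change was above 0 in 44 of the genes in clone 1, in 112 in clone 2 and in 143 in clone 3. The 5 genes with the largest opposite parts under the naming rule were Coro2a, an actin-binding protein, Gpr183, a receptor for oxysterols, Slc37a2, a sugar phosphate carrier of macrophages, Tnfrsf11a, the RANK receptor of osteoclast precursors, and Kcnn4, a calcium-activated potassium channel. Slc37a2 was at 41.6, 30.4 and 24.4 CPM in MEF, at 67.6, 55.8 and 52.6 CPM in MEF+B12, at 24.6, 17.98 and 22.4 CPM in OSKM, and at 34.2, 35.1 and 46.0 CPM in OSKM+B12. Its level was lower than MEF with both agents in clone 1 and higher in clones 2 and 3. The joint change of Slc37a2 was 0.28 ± 0.16 and did not pass, from an induction part of -0.58 and a B12 part of 0.86. In Coro2a the parts were -0.64 and 0.81 and the joint change was 0.17 ± 0.20. Of the macrophage list Adgre1, Csf1r and Trem2 belonged to this class, and of the iron list Fth1, Ftl1 and Tfrc. Without clone 1 or without clone 2 the class was empty, since 0 genes then passed as lower in the induction part, and without clone 3 it held 152 genes.

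The departure of the joint change from the sum of the separate changes passed in 0 of 19174 genes (0%) in edgeR and in 0 genes in DESeq2. At an unadjusted p below 0.05 there were 273 genes in edgeR, or 1.42% of those tested, and 120 in DESeq2. The comparisons share the MEF libraries, so the joint change and the sum are given side by side. In the 265 rises the median joint change was 0.73 and the median sum 0.69, and in the 271 falls -0.40 and -0.41. The departure of a single rise was known to within 0.37 on the log2 scale in the median (95% confidence interval). For a single fall it was known to within 0.25 in the median. The width differed between genes, and a departure smaller than that of its own gene could not be told from 0. These intervals are not adjusted for the 19174 genes tested, and larger departures could also go undetected. That of Rn7s1, at 1.02, did not pass. An unadjusted p below 0.05 was reached by 12 of the 265 rises and 3 of the 271 falls.

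Doxycycline alone changed 14 genes (0.073%) and B12 alone 264 (1.38%), and the sum of these changes, whose standard error is larger, passed in 1 gene (0.00522%). Of the 265 rises 14 had also passed with doxycycline alone and 117 with B12 alone, and 134 had passed in neither. Both separate changes subtract the same MEF libraries as the joint change, so part of this overlap is built in. Of the 271 falls none had passed in either. In the median fall the change was -0.27 with doxycycline alone, -0.15 with B12 alone and -0.40 with both.

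The 5 genes of smallest unadjusted p for the departure were Rn7s1, Rn7s2, Hist1h2ap, Hist1h2ao and Cep55, and none passed the adjustment. Rn7s1 and Rn7s2, copies of the RNA of the signal recognition particle, share 100% of their words with other genes and cannot be told apart. Rn7s1 was at 3.17, 4.92 and 5.79 CPM in MEF and at 6.41, 5.58 and 10.1 CPM in OSKM+B12, and its departure was 1.02 (edgeR unadjusted p = 0.00274 and adjusted p = 1). Hist1h2ap, a replication-dependent histone H2A gene that shares 93.4% of its words with other genes, had a departure of 0.25 (edgeR unadjusted p = 0.00517 and adjusted p = 1). It was at 23.9, 18.8 and 21.6 CPM in MEF, at 27.3, 22.8 and 23.6 CPM in MEF+B12, at 20.3, 17.1 and 18.5 CPM in OSKM, and at 27.7, 24.2 and 24.3 CPM in OSKM+B12. The induced level without B12 was the lowest of the 4 in each clone, and the level with both was the highest. Cep55, which acts in the last step of cell division, went below the sum by 0.36 (edgeR unadjusted p = 0.0064 and adjusted p = 1).

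Additivity depends on the scale on which it is judged, and on the linear scale some of the same genes stood further from the sum. With differences of CPM added in place of log2 changes, Tfrc rose by 25.4 CPM with both agents against a sum of 36.8, a departure of -11.4 ± 4.26 CPM (SD, n = 3 clones). Cd5l rose by 19.6 CPM against a sum of 13.8, with a departure of 5.77 ± 3.80 CPM, which was above 0 in each clone. On the log2 scale its departure was -0.40 and did not pass. Where log2 changes add, parts of the same sign give a linear departure above 0 and opposite parts give one below 0. The signs in Cd5l and Tfrc therefore follow largely from the change of scale. Acta2 went down by 106 CPM against a sum of -51.9, with a departure of -53.9 ± 33.5 CPM. In Mrc1 the departure of -4.34 CPM was far smaller than its spread over clones of 67.2 CPM. They are given as a description with no test, and the smallest p of an exact two-sided sign-flip test over 3 clones would be 0.25.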

How the data were processed

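RNA was measured in 12 libraries of 3 clones and 4 groups. Per the labels and the study's methods, strand-specific libraries were made from poly(A) RNA, read pairs from several flow cells (6 per the labels) were aligned with STAR (version 2.5.2 in the submitters' processing notes) to mm10, and pairs per gene were counted by featureCounts with Ensembl release 97. The deposited files hold unnormalized counts, which the authors had summed over the flow cells of each library. How reads with several matches were treated is not given in the sources used here. For doxycycline the labels' concentration was used, since the study's methods give another unit.

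Names and coordinates came from GENCODE M21 (55480 of 55573 identifiers matched, 0 blank rows). Words of 31 bases shared with transcripts of other genes gave the measure of shared sequence. CPM used TMM factors. edgeR 4.0.16 (R 4.3.3) was fitted to the counts of all 12 libraries with clone and group as terms after filterByExpr by group, and adjusted p-values are from its quasi-likelihood test over 19174 genes, with 6 residual degrees of freedom before sharing across genes. The joint change, its parts and the departure (the interaction) were contrasts of this fit. It was tested on simulated data with the same treatment effects in every clone, so responses that differ between clones were not covered. Intervals are 95%. The coefficient of variation left between libraries, after clone and group were fitted, was 8.04%. Clones pair the libraries because each embryo gave 1 library to every group. Deviations of same-clone libraries from group means correlated across genes at 0.645, 0.399 and 0.343 between MEF and OSKM+B12, against at most 0.170 between clones. Counts carry no molecular identifiers, and the limit given for a level of 0 covers counting error only. The standard errors of the log2 changes are those of the quasi-likelihood fit and include the variation left between libraries.

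The genes and lists were chosen with earlier results of these data known. Named were the 15 rises and 15 falls of largest joint change (mean log2 CPM of at least 1, ordinary symbol, same sign in 3 clones), the 5 genes of smallest p for the departure, the 5 of largest difference between the parts in each direction, 5 with opposite parts, and called genes of 28 lists. Genes outside this rule are given only as members of a list or class. Of the genes that rose or fell, 72.1% and 70.8% had a RefSeq promoter, so motif shares over them were void and are not given. Alternatives were DESeq2 1.42.0, DESeq2 size factors, library totals, no filter, at least 10 counts in every library, no block, each clone left out, the OSKM library of clone 1 left out, the 6 libraries alone and a linear scale.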

Additional observations from a re-analysis of the deposited data

How the results depend on the processing

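Clones decided how many genes passed. Leaving out 1 clone at a time gave 1 to 546 rises and 0 to 596 falls in the joint change, 3 to 1430 and 0 to 1626 in the induction part, 34 to 517 and 0 to 8 in the B12 part, 3 to 936 and 8 to 1369 in the difference of the parts, and 0 to 152 genes with opposite parts. The lowest values came without clone 2, except that the falls of the induction part and the genes with opposite parts were also 0 without clone 1. Without the clone as a replicate block, a fit that ignores the pairing by embryo, 0 genes rose and 0 fell in the joint change, 0 and 0 in the induction part and 90 and 0 in the B12 part, 4 and 139 passed in the difference, and 0 had opposite parts. At an unadjusted p below 0.05 that fit had 1314 genes in the joint change. The 6 libraries alone, paired, gave 37 rises and 4 falls. DESeq2 gave 476 rises and 706 falls, 149 genes lower in the B12 part, 887 with the induction part above the B12 part, and 251 with opposite parts. Without a filter these were 585 rises, 655 falls, 960 with the induction part above, and 257 opposite. Library totals gave 490 rises and 142 falls, 1496 and 632 in the induction part, and 41 lower in the B12 part. Without the OSKM library of clone 1 there were 400 rises and 411 falls, 393 and 378 in the induction part, 139 with the induction part above, and 68 opposite. The causes were not tested. The alternatives for opposite parts and for list counts were chosen after seeing the data.

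The departure passed in 0 genes under every alternative fitted to the 4 groups. Of the 105 named genes none changed the direction of its joint change under any alternative that kept all 3 clones. Without clone 3 the joint changes of Coro2a, Gpr183, Slc37a2, Tnfrsf11a and Kcnn4, which had not passed, changed sign. Over the 3 fits with a clone left out they ranged from -0.194 to 0.55 in Coro2a, from -0.0768 to 0.52 in Gpr183, from -0.0215 to 0.56 in Slc37a2, from -0.0862 to 0.42 in Tnfrsf11a and from -0.041 to 0.61 in Kcnn4. The departures of the named genes, none of which had passed, changed sign in 20, 29 and 22 genes without clones 1, 2 and 3, in 25 without the OSKM library of clone 1, in 7 without the block, and in at most 4 under any other alternative.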
